A study of Mus musculus with 32 samples.

Results

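The 8 genes described here encode surface proteins with which blood stem and progenitor cells home to the marrow, bind its niche and leave it again: Cxcr4, Itga4, Itgb1, Itga6, Cd44, Selplg, Vcam1 and Alcam. They were taken by name from 45706 annotated genes in RNA sequencing of mouse hematopoietic stem and progenitor cells (HSPCs). All 8 passed the filter for testing, though Vcam1 was rare in every group. The HSPCs were wild-type cells carrying both CD45.1 and CD45.2, sorted from marrow as lineage-negative, cKit+ and Sca1+. Each irradiated C57BL/6J recipient (CD45.2) had received 800000 of these wild-type marrow cells together with 200000 CD45.1 partner cells.

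In the AF9_Experienced mice (experienced below) the partner cells were homozygous for hMLL-AF9, a human leukemia fusion gene switched on by doxycycline, and for its activator rtTA. In naive mice the partners were hMLL-AF9-null and homozygous for rtTA alone, so that both groups held the activator. From 6 to 8 weeks after transplantation doxycycline was given for 5 weeks and then withdrawn for 4 weeks, a model of leukemia and its remission in which the sorted cells themselves never carried the fusion. The mice were then injected with phosphate-buffered saline (PBS) or with lipopolysaccharide (LPS), a bacterial cell wall product sensed by Toll-like receptor 4, and sacrificed 24 h later. Each of the 4 groups (naive PBS, naive LPS, experienced PBS, experienced LPS) has 4 libraries. The design asks what LPS does to these genes in the 2 kinds of mice, and whether exposure to a neighbouring leukemia changes their resting level or their response.

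HSPCs are held in the marrow by several contacts that work at once. The chemokine receptor Cxcr4 pulls cells toward its ligand Cxcl12 on stromal cells, integrins bind matrix and the ligand Vcam1 on niche cells, and selectin ligands catch circulating cells on the vessel wall. Inflammatory signals and growth factors can loosen these contacts, after which progenitors move into the blood.

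Libraries held 7.72 to 22.3 M expected counts. A few stood apart: experienced LPS library 4 had the lowest mean correlation with its own group (0.915), followed by naive LPS 2 (0.936), experienced PBS 4 (0.947) and experienced PBS 3 (0.950). Mitochondrial genes took 7.30% of the counts in experienced LPS 4 and 5.94% in experienced PBS 4, against 1.91% to 4.26% in the other libraries, and results that rest on these libraries are given with and without them. Defining transcripts of the sort were present in every library. Kit stood at 115 to 232 TPM (transcripts-per-million), Ly6a, which encodes Sca1, at 26.3 to 231 TPM, and Ptprc, which encodes CD45, at 57.3 to 142 TPM. Ly6a rose after LPS, from 37.7 ± 11.9 to 124 ± 41.5 CPM (TMM-scaled counts-per-million; mean ± SD, n = 4) in naive and from 30.5 ± 14.5 to 112 ± 21.3 CPM in experienced mice (adjusted p = 0.00237 and 0.00207, edgeR), although the gate requires Sca1. In bulk RNA, fewer cells of a type and less RNA per cell cannot be told apart. The labels do not say whether replicates are separate mice, so the p-values measure the spread between these libraries.

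The promoters of Alcam and Cxcr4 are shown because these members had the clearest change after LPS and the narrowest range of levels. Sequences are the 250 bases before the RefSeq start (GRCm38.p6), read on the minus strand in the direction of transcription. Capitals mark the motifs found. In the Alcam promoter, chr16:52453082-52453331, they are a CCAAT box at 201 to 197 bases before the start and GC boxes at 159 to 154 and 10 to 5 bases before it. By GENCODE's coordinates this window lies inside the gene, which begins at 52454074 on the minus strand, so the RefSeq and GENCODE starts differ.
Alcam: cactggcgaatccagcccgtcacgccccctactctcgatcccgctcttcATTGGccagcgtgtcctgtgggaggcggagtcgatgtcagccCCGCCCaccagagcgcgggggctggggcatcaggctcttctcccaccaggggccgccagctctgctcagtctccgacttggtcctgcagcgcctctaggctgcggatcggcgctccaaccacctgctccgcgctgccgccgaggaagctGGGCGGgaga
In the Cxcr4 promoter, chr1:128592300-128592549, they are GC boxes at 95 to 90, 75 to 70 and 50 to 45 bases before the start and a pair of overlapping TATA box matches, on opposite strands, at 32 to 27 and 30 to 25 bases before it.
Cxcr4: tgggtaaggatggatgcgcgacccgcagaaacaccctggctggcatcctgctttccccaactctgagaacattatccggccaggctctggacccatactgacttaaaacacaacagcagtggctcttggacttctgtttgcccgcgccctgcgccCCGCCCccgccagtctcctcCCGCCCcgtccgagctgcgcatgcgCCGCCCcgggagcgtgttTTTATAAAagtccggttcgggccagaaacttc
Motifs were searched on both strands as exact letters: GGGCGG (GC box, in 32.7% of 32851 promoter windows of this length), CCAAT (33.8%), TATAAA (12.4%), TGANTCA (AP-1 site, 6.75%), GAAANNGAAA (core of the interferon response element, 2.98%) and the NF-kappaB site (7.25%). The last 3 were found in none of the 5 members matched in the promoter table (Cxcr4, Itga4, Itgb1, Cd44 and Alcam). Itga4 and Itgb1 held 1 GC box each, and Cd44 held no match. GC content was 69.2% in the Alcam and 61.2% in the Cxcr4 window, against a median of 52.4% over all promoters, with 22 and 19 CG dinucleotides against a median of 6.

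Of the 8 genes, 2 fell after LPS in naive mice (Selplg and Alcam) and 0 rose, while in experienced mice Alcam fell and Itga6 rose. Over all 15186 genes tested, the quasi-likelihood test of edgeR, with p-values adjusted by Benjamini and Hochberg's method, called 11.9% lower and 9.81% higher in naive mice, and 8.26% lower and 4.52% higher in experienced mice. The 2 of 8 called in each contrast stand beside 21.7% and 12.8% of all genes in either direction. The median log2 change of the 8 genes was -0.17 in naive and -0.16 in experienced mice, beside 0.02 and -0.02 over all genes. In CPM, 4 of 8 members had naive LPS and PBS libraries that did not overlap (29.3% of all genes), and 3 of 8 had such experienced libraries (17.3%). With DESeq2, and with the 2 naive groups alone, 4 of 8 were called in naive mice (27.2% and 24.3% of all genes), and without the 4 least typical libraries 4 of 8 were called in naive and 4 in experienced mice (34.3% and 31.6%). The members gained in naive mice were Itga4 and Vcam1 in each of these 3 settings, and in experienced mice Selplg and Vcam1. Without both high-mitochondrial libraries the counts were 4 and 3 (31% and 21.7% of all genes), with a replicate block 3 and 3 (19.2% and 10.5%), and by limma on log2(TPM + 1) 3 and 1 (12.4% and 7.45%). The experienced groups alone gave 2 (8.4%), as did DESeq2 there (18.7%).

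**Figure D1:**
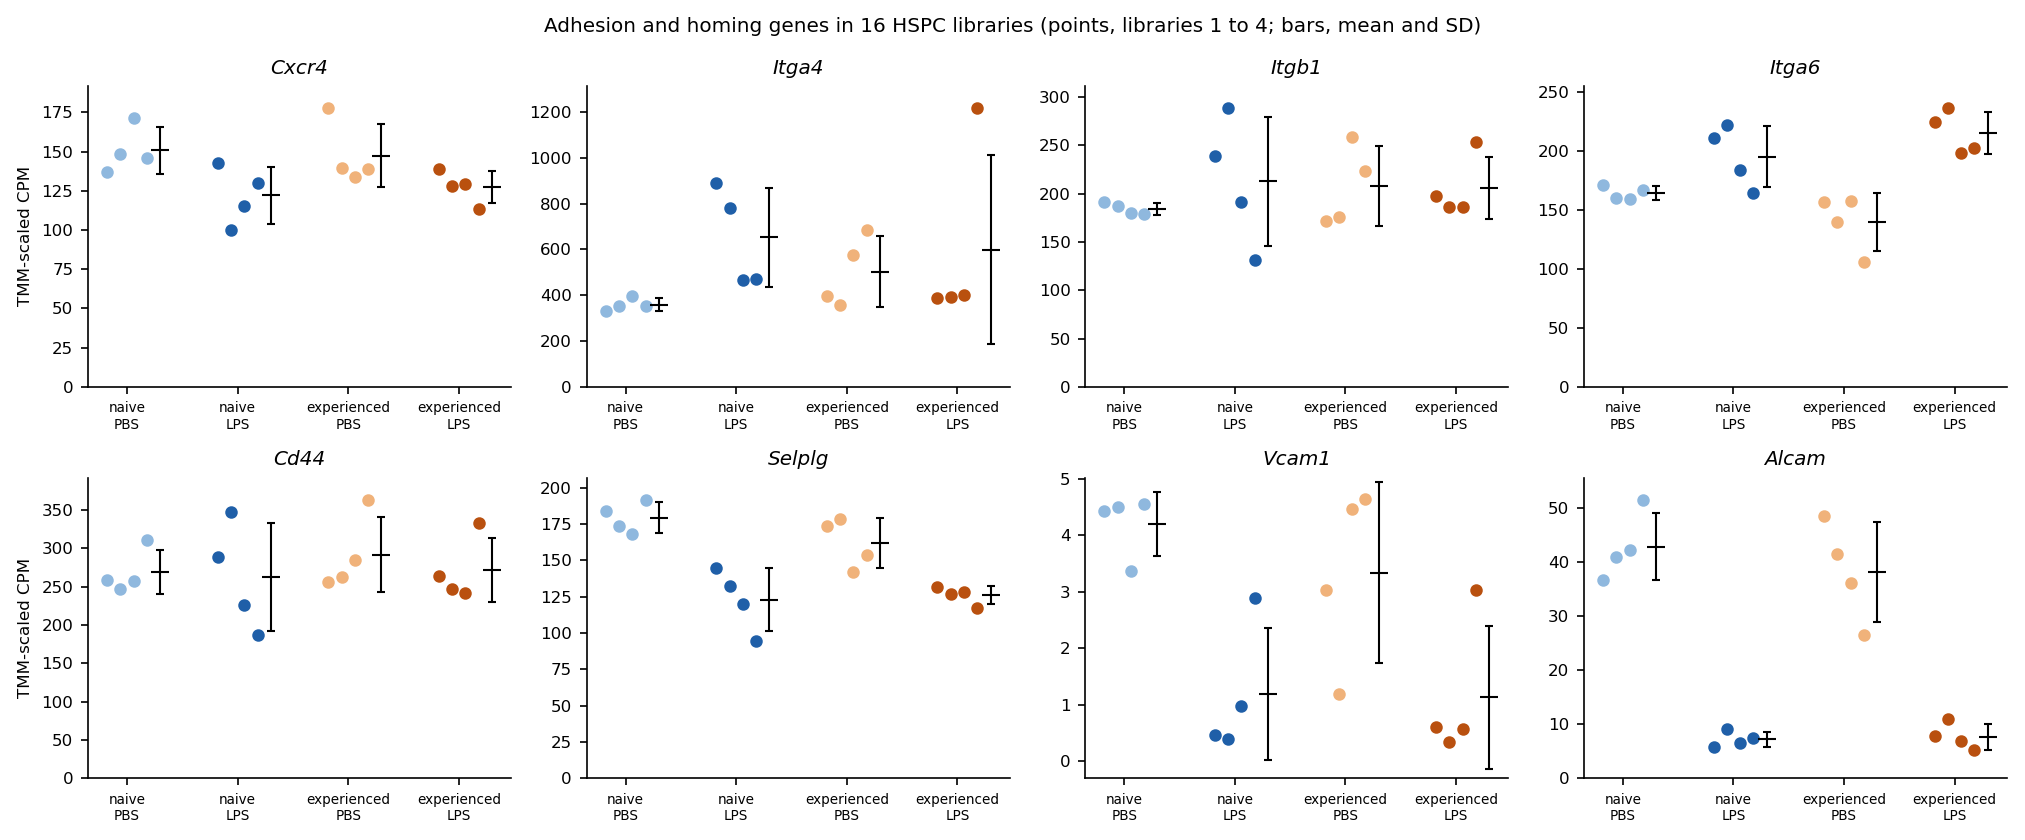
Level of each gene in the 16 HSPC libraries, in TMM-scaled counts-per-million (CPM; linear y axes, 1 panel per gene; the Vcam1 axis starts just below 0 to show its whole error bar). Points are libraries 1 to 4 of a group from left to right, and bars are the mean and SD; the LPS points of Alcam lie at 5.22 to 10.96 CPM, all below the PBS points at 26.5 to 51.6 CPM.

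**Figure D2:**
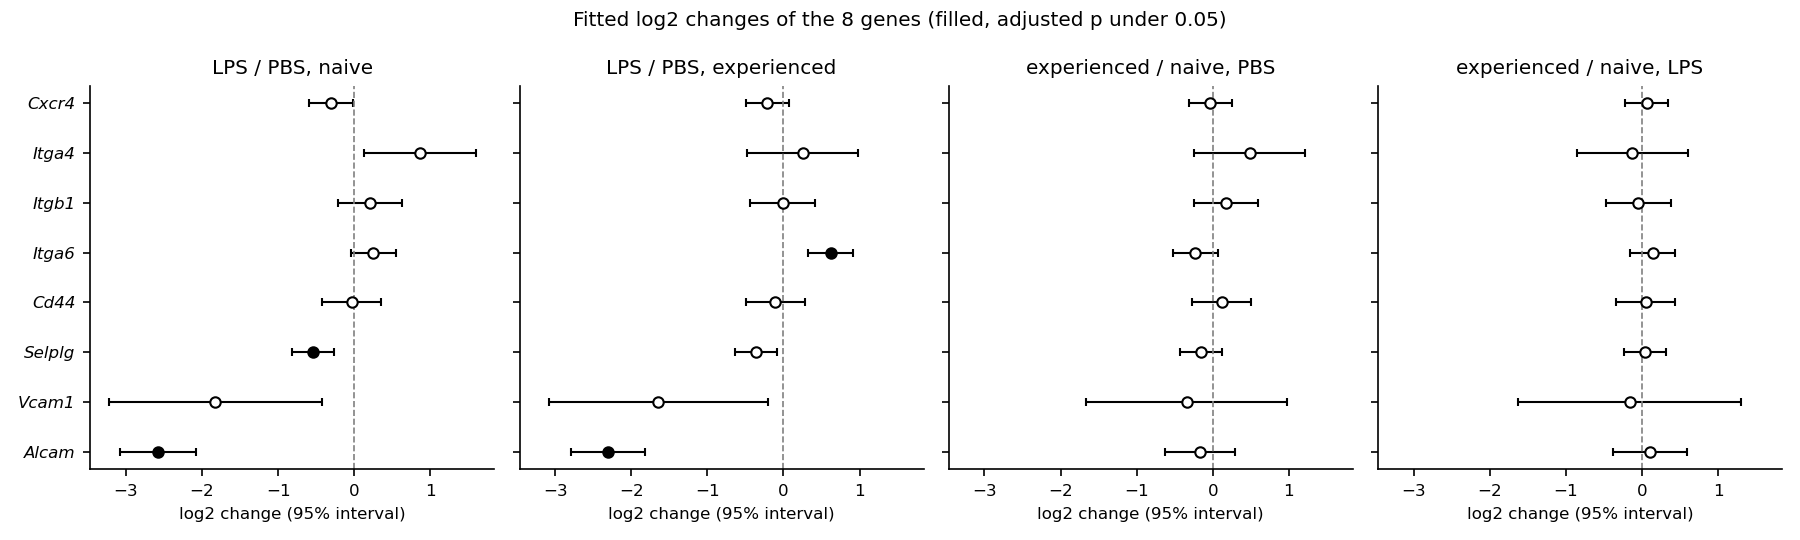
Fitted log2 change of each gene in 4 contrasts, with 95% intervals (x axis, log2 ratio of the first to the second named group; filled points have an adjusted p under 0.05). Alcam lies at -2.58 and -2.31 after LPS, Selplg is filled in naive mice only and Itga6 in experienced mice only, and no point is filled between experienced and naive mice.

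Alcam (ENSMUSG00000022636, chromosome 16, 52248996 to 52454074, minus strand, GRCm38) encodes the immunoglobulin-type molecule CD166, which is found on stem cells and on niche cells and binds itself and CD6. It was the member that moved most. Naive PBS libraries 1 to 4 had 36.8, 41.0, 42.2 and 51.6 CPM, and naive LPS libraries 5.82, 9.04, 6.58 and 7.54 CPM. Experienced PBS libraries had 48.6, 41.5, 36.1 and 26.5 CPM, and experienced LPS libraries 7.77, 10.96, 6.93 and 5.22 CPM. All 8 LPS libraries lay below all 8 PBS libraries. The fall was 5.97-fold in naive mice (log2 change -2.58, SE 0.23, adjusted p = 6.52e-06, edgeR) and 4.94-fold in experienced mice (-2.31, SE 0.23, adjusted p = 2.05e-05). Only 1.84% and 2.17% of tested genes had a lower log2 change in the respective contrasts. Without the 4 least typical libraries the values were -2.68 and -2.40 (adjusted p = 4.94e-07 and 3.97e-06, edgeR). The response of experienced minus naive mice was 0.27 on the log2 scale (95% interval -0.40 to 0.94, adjusted p = 0.896, edgeR).

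Vcam1 (ENSMUSG00000027962, chromosome 3, 116109949 to 116129688, minus strand) is the ligand that the integrin formed by Itga4 and Itgb1 binds, and in marrow it is best known from stromal, endothelial and macrophage cells. It was the rarest member, with 3 to 100 expected counts per library. After LPS it lay near the limit of the filter, which dropped it when the LPS groups were taken alone. Where a gene is kept for its PBS level, a fall after LPS is favoured, and the p-values do not allow for this. In CPM, naive PBS libraries had 4.42, 4.49, 3.36 and 4.55, and naive LPS libraries 0.471, 0.387, 0.988 and 2.89. The experienced PBS libraries had 3.03, 1.20, 4.47 and 4.65 CPM, and the experienced LPS libraries 0.610, 0.339, 0.566 and 3.02 CPM. The naive groups did not overlap. In experienced mice LPS library 4 (3.02 CPM) lay above PBS library 2 (1.20 CPM), so the groups did. The log2 change was -1.83 in naive mice (SE 0.66, 95% interval -3.23 to -0.43) and -1.65 in experienced mice (SE 0.68, -3.08 to -0.21), and neither passed after adjustment (adjusted p = 0.0587 and 0.122, edgeR). Both were called without the least typical libraries, at -1.58 and -1.97 (adjusted p = 0.0269 and 0.0276, edgeR). Without experienced LPS library 4 alone, the experienced value was -2.62 (adjusted p = 0.00954, edgeR), and without naive LPS library 4 the naive value was -2.69 (adjusted p = 0.0124).

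Markers of the cells that usually make Vcam1 were measured beside it. Of 12 macrophage markers 9 were tested: 0 rose and 1 fell after LPS in each kind of mouse, and their summed level was 9.53 to 17.7 TPM in naive PBS, 5.84 to 16.9 in naive LPS, 6.46 to 13.1 in experienced PBS and 4.16 to 8.49 in experienced LPS libraries. The most abundant were Axl, C1qa, C1qc and C1qb, with naive PBS means of 3.79, 2.58, 2.51 and 2.46 TPM, above that of Vcam1, and Spic (1.31 TPM). Axl ranged from 3.44 to 4.35 TPM in naive PBS and from 1.23 to 2.79 TPM in naive LPS libraries, with log2 changes of -1.18 in naive and -0.96 in experienced mice that did not pass (adjusted p = 0.136 and 0.282, edgeR). The genes that fell were Mrc1 in naive (-1.98) and Cd163 in experienced mice (-1.29). Adgre1 (F4/80), a defining macrophage gene, stayed at or below 0.500 TPM, Vsig4 was at 0 in 15 of 16 libraries, and Marco and Timd4 were at 0 in 12 each. Of 10 endothelial markers 6 were tested, of which 3 fell in naive and 2 in experienced mice. Their sums were 134 to 175 TPM in naive PBS, 43.9 to 66.8 in naive LPS, 74.8 to 159.6 in experienced PBS and 65.1 to 82.6 in experienced LPS libraries, made up mostly of Egfl7 and Tie1, which HSPCs also express. Emcn and Plvap had naive PBS means of 9.74 and 2.11 TPM, above the 1.66 TPM of Vcam1. Emcn ranged from 7.08 to 12.4 TPM in naive PBS and from 0.55 to 4.37 TPM in naive LPS libraries. Plvap ranged from 0.97 to 2.97 and from 1.19 to 6.96 TPM there. The defining endothelial gene Cdh5 stayed at or below 0.340 TPM, and Kdr, Stab2, Flt4, Ramp2 and Sox17 had naive PBS means of at most 1.24 TPM. Of 10 stromal markers 3 were tested and 0 were called by edgeR (Pdgfrb had an unadjusted p of 0.0367 in naive mice), with sums of 9.53 to 26.6 TPM over the groups, nearly all from Pdgfrb. Cxcl12 did not exceed 0.460 TPM in any library, and Lepr was at 0 in 12. The part of these cells in the Vcam1 values was not tested.

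Selplg (ENSMUSG00000048163, chromosome 5, 113818536 to 113832644, minus strand) encodes PSGL-1, the main ligand that lets progenitors roll on selectins of the vessel wall. Naive PBS libraries had 184, 174, 168 and 192 CPM, and naive LPS libraries 145, 132, 119.8 and 94.4 CPM. The experienced PBS libraries had 174, 178, 142 and 153 CPM, and the experienced LPS libraries 132, 127, 128 and 117 CPM. In both kinds of mice every LPS library lay below every PBS library. The fall in naive mice was 1.46-fold (log2 change -0.54, SE 0.13, adjusted p = 0.00828, edgeR). In experienced mice the log2 change was -0.36 (SE 0.13, 95% interval -0.64 to -0.08, adjusted p = 0.0798, edgeR), which did not pass. It did pass without the least typical libraries (-0.43, adjusted p = 0.0361, edgeR). The 2 responses differed by 0.18 (95% interval -0.21 to 0.57, adjusted p = 0.887, edgeR), so that no difference between naive and experienced mice was detected.

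Cd44 (ENSMUSG00000005087, chromosome 2, 102811141 to 102901665, minus strand) is the receptor for hyaluronan, and some of its glycoforms also bind selectins. Its levels were 258, 248, 258 and 312 CPM in naive PBS libraries 1 to 4, and 289, 347, 226 and 188 CPM after LPS. In experienced mice they were 257, 263, 285 and 364 CPM after PBS, and 264, 248, 242 and 333 CPM after LPS. The naive LPS libraries lay on both sides of the PBS libraries, and the experienced groups overlapped. The log2 change was -0.04 in naive mice (95% interval -0.42 to 0.35) and -0.10 in experienced mice (-0.49 to 0.28), with adjusted p = 0.917 and 0.760 by edgeR.

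Cxcr4 (ENSMUSG00000045382, chromosome 1, 128588199 to 128592293, minus strand) is the receptor that retains HSPCs beside stromal cells making Cxcl12. Its levels in libraries 1 to 4 were 137, 148, 172 and 146 CPM in naive PBS and 143, 100.2, 115 and 129.8 CPM in naive LPS. In experienced mice they were 178, 139, 134 and 139 CPM after PBS and 139, 128, 129 and 114 CPM after LPS. The group means were lower after LPS (122 ± 18.3 against 151 ± 14.8 CPM in naive, 127 ± 10.4 against 147 ± 20.3 CPM in experienced mice), but 1 naive LPS library lay above the lowest naive PBS library and the experienced groups overlapped as well. The log2 changes were -0.30 (SE 0.14, 95% interval -0.59 to -0.02) and -0.21 (SE 0.14, -0.50 to 0.07), and neither passed (adjusted p = 0.118 and 0.336, edgeR).

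Of the 3 integrin subunits, Itga6 was called after LPS, in experienced mice, and Itga4 and Itgb1 were not called in either kind of mouse. Itga4 (ENSMUSG00000027009, chromosome 2, 79255426 to 79333123, plus strand) encodes the alpha 4 chain, which pairs with the beta 1 chain of Itgb1 to bind Vcam1 and fibronectin. Naive PBS libraries had 331, 351, 398 and 354 CPM, and naive LPS libraries 892, 781, 467 and 473 CPM, all 4 above the PBS libraries. In experienced mice the PBS libraries had 395, 356, 575 and 685 CPM, and the LPS libraries 387, 391, 399 and 1216 CPM. There 3 of the 4 LPS libraries lay within the PBS range and library 4 far above it. The log2 change was 0.87 in naive mice (SE 0.35, 95% interval 0.13 to 1.60, adjusted p = 0.0838, edgeR) and 0.25 in experienced mice (SE 0.34, -0.48 to 0.98, adjusted p = 0.690).

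How far Itga4 differed between libraries bears on its test. The SD over the mean was 7.84% in naive PBS and 33.1%, 30.7% and 68.8% in naive LPS, experienced PBS and experienced LPS. The 4 least typical libraries were among the 5 with the highest Itga4, the other being naive LPS 1. Without those 4 libraries the naive log2 change was 0.79 and passed (adjusted p = 0.00408, edgeR), and the experienced one was 0.09 (adjusted p = 0.794). Without experienced LPS library 4 alone, the naive change was 0.88 (adjusted p = 0.00862) and the experienced change turned to -0.33 (adjusted p = 0.349). The difference of the responses, experienced minus naive, was -0.62 (95% interval -1.65 to 0.42, adjusted p = 0.884, edgeR) and -0.70 without the least typical libraries (adjusted p = 0.340). It was -1.02 without both high-mitochondrial libraries (adjusted p = 0.296, edgeR) and -1.21 without experienced LPS library 4 alone (adjusted p = 0.190), and was called in none of these 4 fits.

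Itgb1 (ENSMUSG00000025809, chromosome 8, 128685654 to 128733200, plus strand) encodes the beta 1 chain shared by the alpha 4 and alpha 6 chains. Its levels were 192, 187, 179.6 and 179 CPM in naive PBS and 239, 288, 191 and 132 CPM in naive LPS. In experienced mice they were 172, 176, 259 and 223 CPM after PBS and 197, 186, 187 and 254 CPM after LPS. The naive LPS libraries spread to both sides of the narrow PBS range. The log2 changes, 0.21 (95% interval -0.22 to 0.63) in naive and -0.01 (-0.44 to 0.41) in experienced mice, did not pass (adjusted p = 0.499 and 0.978, edgeR).

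Itga6 (ENSMUSG00000027111, chromosome 2, 71745616 to 71858416, plus strand) encodes the alpha 6 chain of laminin receptors. Naive PBS libraries had 171, 159.9, 159 and 167 CPM, and naive LPS libraries 211, 222, 184 and 164 CPM. The experienced PBS libraries had 157, 140.0, 158 and 105 CPM, and the experienced LPS libraries 225, 236, 198 and 202 CPM. In experienced mice every LPS library lay above every PBS library, while in naive mice LPS library 4 lay within the PBS range. The rise in experienced mice was 1.54-fold (log2 change 0.62, SE 0.14, adjusted p = 0.00851, edgeR). In naive mice the log2 change was 0.25 (SE 0.14, 95% interval -0.04 to 0.54, adjusted p = 0.213). The difference of the responses was 0.37 (95% interval -0.04 to 0.79, unadjusted p = 0.0764 and adjusted p = 0.884, edgeR). The experienced rise was 0.59 without the least typical libraries (adjusted p = 0.00302, edgeR) and 0.49 by limma on log2(TPM + 1), where it did not pass (adjusted p = 0.132).

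Between experienced and naive mice no member was called, at rest or after LPS. At rest the log2 differences of experienced minus naive were -0.03 (95% interval -0.32 to 0.25) for Cxcr4, 0.49 (-0.24 to 1.22) for Itga4, 0.17 (-0.25 to 0.59) for Itgb1 and -0.23 (-0.52 to 0.06) for Itga6. They were 0.12 (-0.27 to 0.50) for Cd44, -0.15 (-0.42 to 0.13) for Selplg, -0.34 (-1.66 to 0.98) for Vcam1 and -0.17 (-0.62 to 0.29) for Alcam. Itga6 was the 1 member of 8 whose resting groups did not overlap, by a margin of 158 against 159 CPM, beside 4.04% of all genes. After LPS the differences ranged from -0.16 (SE 0.69) for Vcam1 to 0.14 (SE 0.14) for Itga6, and no member had groups that did not overlap (1.62% of all genes). The intervals of Itga4 and Vcam1 reach past a 1.5-fold difference in both directions after LPS, whereas those of Cxcr4, Cd44, Selplg and Itga6 do not in either history contrast. These values come from all libraries, and some moved when libraries were left out. Without the least typical libraries Vcam1 stood at -0.99 at rest and -1.38 after LPS (adjusted p = 0.234 after LPS, edgeR). Without both high-mitochondrial libraries it stood at -0.55 and -1.16 (adjusted p = 0.408 after LPS, edgeR). The resting difference of Itga4 was 0.07 and 0.30 in these 2 fits.

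The LPS responses of Cxcr4, Itgb1, Cd44 and Vcam1 differed by -0.22 (Itgb1) to 0.18 (Vcam1) on the log2 scale between experienced and naive mice, with adjusted p from 0.902 to 0.975 (edgeR). These 0 of 8 stand beside 0% of the 15186 genes called by edgeR in each history contrast and in the interaction. At an unadjusted p under 0.05 there were 451 genes at rest (2.97%), 491 after LPS (3.23%) and 695 in the interaction (4.58%). DESeq2 called 2, 2 and 1 genes (0.0132%, 0.0132% and 0.00659%) and limma 1, 0 and 0 (0.00659% at rest). Without the 4 least typical libraries, 223 genes (1.41%) were called between experienced and naive mice after LPS and 1 (0.00631%) at rest, none of them a member. Without both high-mitochondrial libraries 1 gene (0.00646%) was called after LPS. After LPS Itga4 differed by -0.63 without the least typical libraries (adjusted p = 0.111, edgeR) and by -0.73 without both high-mitochondrial libraries (adjusted p = 0.204). Alcam differed by 0.34 and 0.24 in these fits (adjusted p = 0.343 and 0.574, edgeR).

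Levels of different genes were compared in TPM, which accounts for transcript length. In naive PBS cells the medians ran from Selplg (147 TPM) over Cxcr4 (114), Cd44 (94.2), Itgb1 (66.8), Itga6 (64.6) and Itga4 (59.9) to Alcam (18.9) and Vcam1 (1.65). Between neighbours in this order only Cd44 and Itgb1, Itga4 and Alcam, and Alcam and Vcam1 had ranges over 4 libraries that did not overlap. Experienced PBS cells also had Selplg (132 TPM), Cxcr4 (116) and Cd44 (101) as the top 3 by median, with overlapping ranges.

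After LPS the medians of the upper 6 genes spanned a narrower range, a difference that was not tested. In naive LPS cells Cd44 had the highest median (94.4 TPM) and Itga6 the lowest of the 6 (72.7 TPM), and no neighbours among them had separate ranges. In experienced LPS cells they ran from Selplg (101 TPM) to Itgb1 (62.3 TPM), again without a gap. Alcam stood at medians of 2.94 and 3.29 TPM and Vcam1 at 0.255 and 0.215 TPM, each with a range separate from the gene above.

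Across the 16 libraries, levels of Itgb1 and Cd44 moved together (Pearson r of log2 CPM 0.79, 16 libraries), as did Itga4 and Itgb1 (0.71) and Selplg and Alcam (0.84), which were both lower after LPS. By rank (Spearman rho) these pairs had 0.62, 0.54 and 0.83. With each group centred on its own mean, Itgb1 and Cd44 still had r = 0.83 (rho 0.85), Itga4 and Cd44 0.76 (0.75) and Itga4 and Itgb1 0.73 (0.81), while Selplg and Alcam had 0.20 (0.31). Within groups these 3 genes thus varied jointly from library to library, and the cause of this was not tested. Group-centred Itga4 had r = 0.80 with the mitochondrial share and -0.73 with the number of detected genes. Cd44 had 0.57 and -0.63, and Itgb1 0.36 and -0.52. The rho values were 0.61 and -0.62 for Itga4, 0.54 and -0.62 for Cd44, and 0.46 and -0.57 for Itgb1. The part of RNA quality in these differences was not tested.

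**Figure D3:**
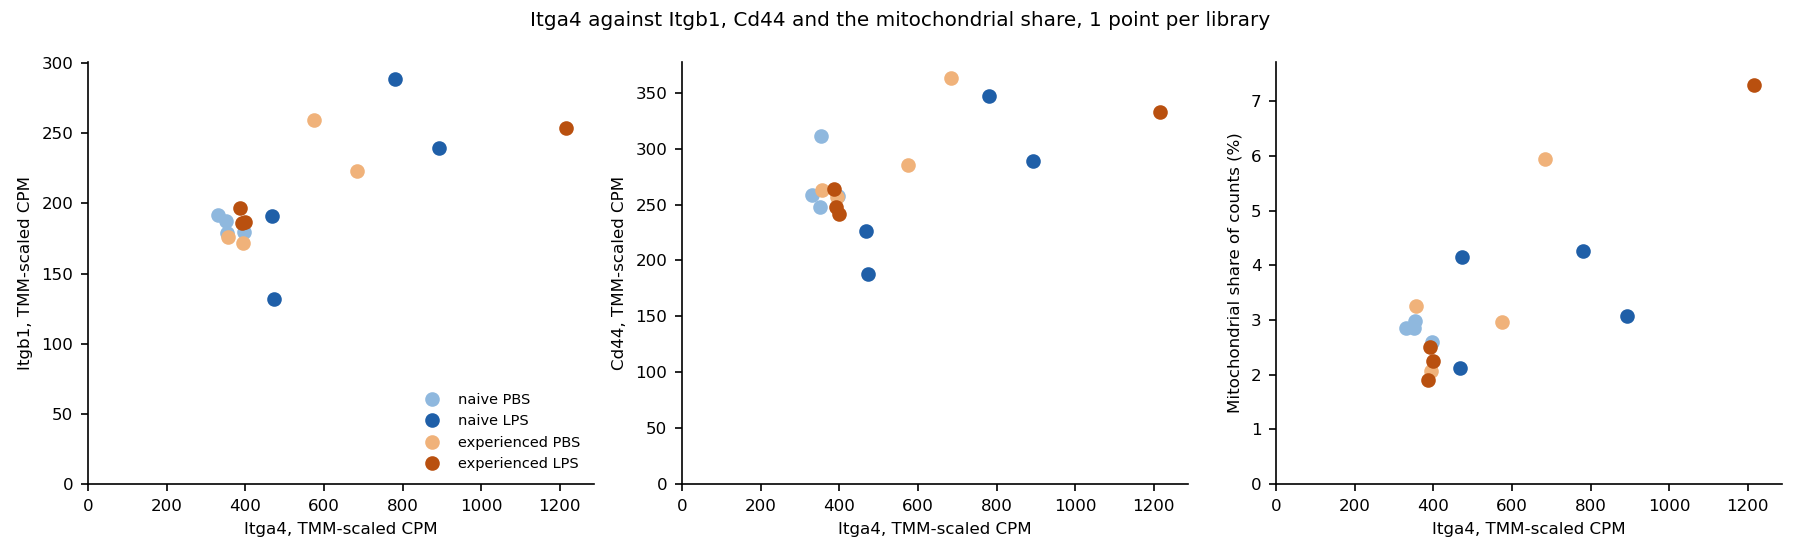
Level of Itga4 (x axis, TMM-scaled CPM) against Itgb1, Cd44 (TMM-scaled CPM) and the mitochondrial share of counts (%), 1 point per library, colored by group. Most libraries sit at an Itga4 level of 331 to 473 CPM, and the 5 libraries from 575 CPM upward have an Itgb1 level of 223 to 288 CPM.

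RSEM also reports for each gene a mean transcript length weighted by the estimated abundance of its isoforms, which describes the isoform mix. All 5 Itga4 transcripts, 4 of Itgb1, 9 of Cd44 and 7 of Alcam listed in the tables are in GENCODE's annotation. For Itga4, whose 1 protein-coding transcript has 9767 bases, the weighted length ran from 6223 to 8769 bases. It was greatest in naive LPS 2 (8769), experienced LPS 4 (8696), experienced PBS 4 (8483) and naive LPS 1 (8196), which are also 4 of the 5 libraries with the highest Itga4 level. In the same 4 libraries Itgb1 had its shortest weighted lengths, at 3166 (naive LPS 2), 3176 (naive LPS 1), 3286 (experienced LPS 4) and 3306 bases (experienced PBS 4), against 3506 to 3738 bases in the others.

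Cd44, a gene known for alternative exons, had weighted lengths of 2662 bases in experienced LPS 4 and 2815 in naive LPS 2, against 3250.0 to 3792 bases elsewhere. Alcam varied most, from 991 bases in experienced LPS 4 to 5991 in naive LPS 3, at 38 and 140.0 expected counts. For Itga4, Itgb1 and Alcam the weighted lengths of all 4 groups overlapped. For Cd44 the naive LPS libraries (2815 to 3503 bases) all lay below the naive PBS libraries (3521 to 3583 bases), a difference that was not tested, while the other pairs of groups overlapped.

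**Figure D4:**
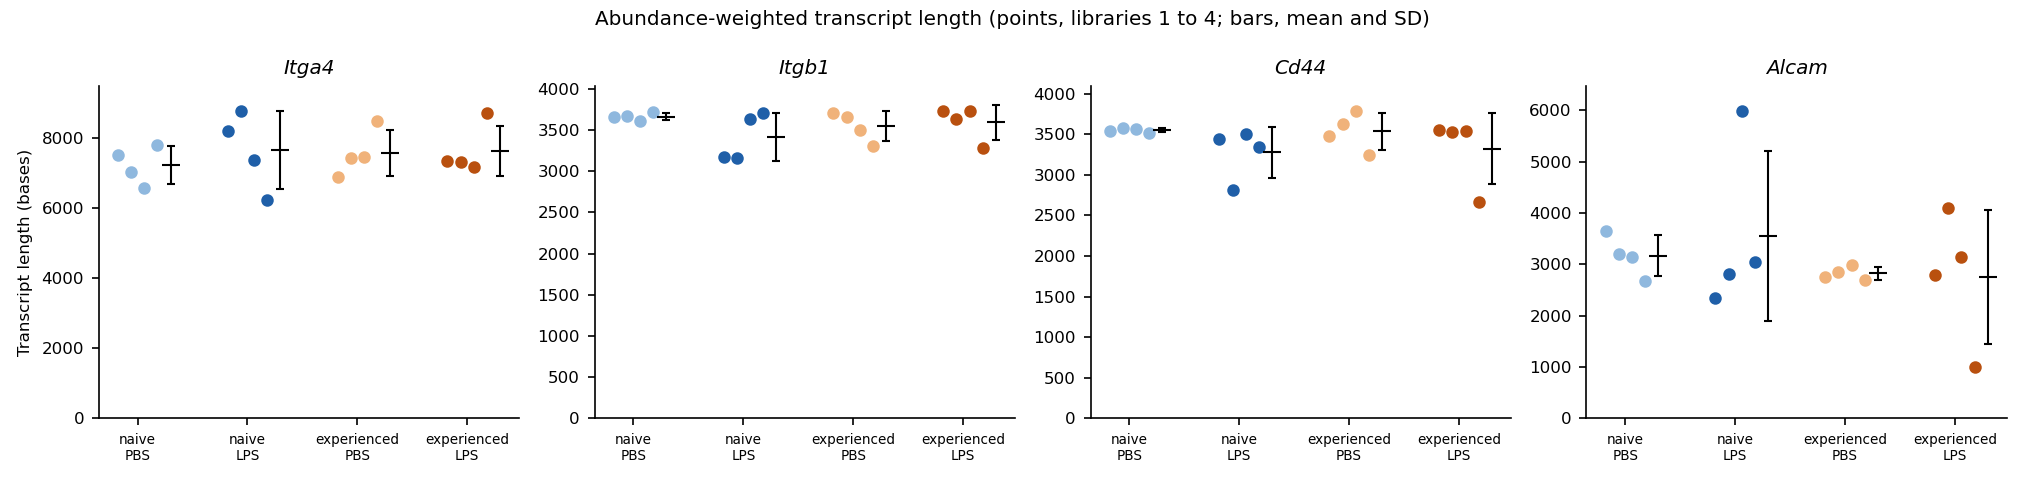
Abundance-weighted transcript length of 4 genes in bases (y axes from 0), with points for libraries 1 to 4 of each group and bars for the mean and SD. Libraries at the extremes are mostly the same ones: experienced LPS 4 has 8696 bases for Itga4 and 2662 for Cd44.

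The related genes were described through 8 lists with 130 tested genes in all. After LPS, 13 of the 130 rose and 31 fell in naive mice, and 9 rose and 15 fell in experienced mice, beside the 9.81%, 11.9%, 4.52% and 8.26% of all genes given above. None was called between experienced and naive mice or in the interaction (edgeR).

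**Figure D5:**
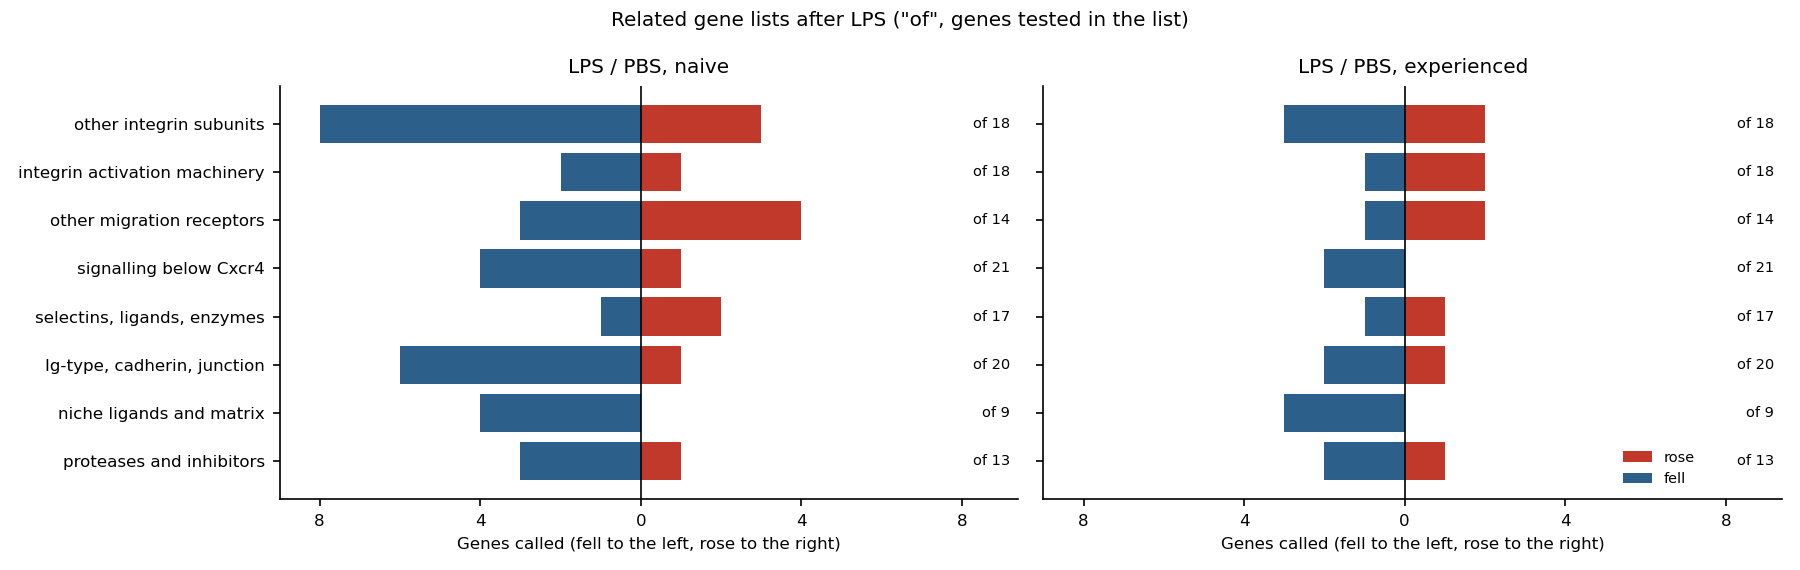
Number of genes that fell (bars to the left) or rose (bars to the right) after LPS by edgeR in 8 lists of adhesion and migration genes, in naive and experienced mice; the number tested in each list is at the right edge. The longest bar is the 8 of 18 other integrin subunits that fell in naive mice, against 3 that fell in experienced mice.

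Among 18 other integrin subunits 3 rose and 8 fell in naive mice (median log2 change -0.54), and 2 rose and 3 fell in experienced mice (-0.23). The subunits of the platelet fibrinogen receptor rose: Itga2b from 162 ± 35.8 to 374 ± 79.8 CPM in naive and from 117 ± 25.6 to 411 ± 122 CPM in experienced mice, and Itgb3 from 42.6 ± 5.30 to 158 ± 52.0 and from 34.9 ± 6.89 to 157 ± 47.4 CPM (mean ± SD, n = 4). Both genes also stand in the megakaryocyte list and count toward its totals. Of its 9 tested markers 4 rose and 0 fell in each kind of mouse, with median log2 changes of 0.11 in naive and 0.92 in experienced mice. Pf4 ranged from 47.1 to 98.1 TPM in naive PBS and from 22.1 to 62.2 TPM in naive LPS libraries. Gp9 ranged from 11.5 to 15.8 and from 3.75 to 9.86 TPM there. Itga9, which also binds Vcam1, fell (log2 change -2.50 in naive and -2.13 in experienced mice), as did Itgam, a myeloid subunit (-1.48 and -1.97).

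Of 18 genes that switch integrins on or link them to actin, 1 rose and 2 fell in naive mice, and 2 rose and 1 fell in experienced mice. Rap1b, a small GTPase that activates integrins, rose in both (0.79 and 0.88). Zyx, a protein of adhesion sites, fell in naive mice from 311 ± 17.1 to 153 ± 23.3 CPM, and its log2 change in experienced mice was -0.38 (adjusted p = 0.201, edgeR). Rasgrp2, which loads Rap1, fell in naive mice (-0.59), and Itgb1bp1, a regulator of beta 1 integrins, rose in experienced mice (0.59, adjusted p = 0.0302, edgeR).

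Other receptors that steer migration went both ways, with 4 up and 3 down of 14 in naive mice and 2 up and 1 down in experienced mice. Ccr1, an inflammatory chemokine receptor, rose from 0.946 ± 0.234 to 7.08 ± 2.66 CPM in naive and from 1.07 ± 0.189 to 8.81 ± 4.19 CPM in experienced mice. Ptafr, the receptor for platelet-activating factor, fell by 3.22 and 3.02 on the log2 scale. Cnr2, a cannabinoid receptor, rose in naive mice (1.53) and S1pr3, a sphingosine 1-phosphate receptor, fell there (-0.94), while their experienced values of 0.73 and -0.24 did not pass.

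Below Cxcr4, 1 of 21 signalling genes rose and 4 fell in naive mice, and 0 rose and 2 fell in experienced mice. Dpp4, the surface peptidase that inactivates Cxcl12, fell from 37.5 ± 1.63 to 24.7 ± 5.40 CPM in naive and from 32.5 ± 7.08 to 16.1 ± 1.86 CPM in experienced mice. The G-protein regulators Rgs14 (-0.96) and Rgs19 (-0.48) fell in naive mice, where Arrb2, an arrestin that ends receptor signalling, rose (0.42). Its relative Arrb1 fell in experienced mice (-0.42, adjusted p = 0.0492, edgeR).

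Among 17 selectins, selectin ligands and the enzymes that decorate them, 2 rose and 1 fell in naive mice, and 1 rose and 1 fell in experienced mice. Cd34, a sialomucin and marker of progenitors, fell from 755 ± 71.6 to 334 ± 74.6 CPM and from 698 ± 109 to 374 ± 49.2 CPM. Podxl, another sialomucin, rose (0.98 and 1.31), and C1galt1, which adds galactose to mucin-type sugar chains, rose in naive mice (0.99).

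The list of other immunoglobulin-type, cadherin and junction molecules had 1 up and 6 down of 20 in naive mice (median -0.70) and 1 up and 2 down in experienced mice (-0.25). Pecam1 fell alike in both (-0.63 each). Esam, an adhesion molecule of endothelium and stem cells, fell in naive mice from 27.8 ± 3.89 to 9.36 ± 2.58 CPM, with a log2 change of -0.37 in experienced mice (adjusted p = 0.514, edgeR). Bcam, a laminin receptor, fell from 6.30 ± 0.972 to 0.0761 ± 0.0899 CPM and from 5.37 ± 2.60 to 0.208 ± 0.240 CPM. Cdh1 (E-cadherin) rose in naive mice from 0.525 ± 0.457 to 8.49 ± 5.78 CPM.

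Of 9 niche ligands and matrix genes 0 rose in either kind of mouse, while 4 fell in naive (median -0.98) and 3 in experienced mice (-0.87). Angpt1, a ligand for the receptor Tek, fell from 418 ± 41.5 to 212 ± 65.8 CPM and from 411 ± 47.8 to 224 ± 60.4 CPM. The basement membrane gene Col4a1 fell in both (-1.15 and -1.04). The laminin gene Lama4 fell too, from 0.813 ± 0.322 to 0.0454 ± 0.0610 CPM and from 0.599 ± 0.386 to 0.0508 ± 0.102 CPM, and Lamb2 fell in naive mice (-2.26).

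Of 13 proteases that cut adhesion molecules and their inhibitors, 1 rose and 3 fell in naive mice, and 1 rose and 2 fell in experienced mice. The matrix protease Mmp2 fell from 10.3 ± 0.975 to 1.19 ± 0.406 CPM in naive and from 8.77 ± 3.77 to 1.95 ± 0.208 CPM in experienced mice. Its inhibitor Timp2 fell as well (-1.77 and -1.54), as did the membrane-bound inhibitor Reck in naive mice (-1.47). Mmp14, a membrane protease that activates Mmp2, rose in naive mice from 7.36 ± 2.28 to 25.9 ± 9.17 CPM.

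Genes whose level over the 16 libraries was most like that of a member were sought among 9425 genes by Pearson r of log2 CPM, as a description. Alcam was closest to Mecom, a transcription factor gene of stem cells (r = 0.991), Stat4 (0.984) and Appl2 (0.979), all of which fell after LPS in both kinds of mice. Selplg was closest to Wasf2 (0.975), Vdr (0.964) and Aldh2 (0.960), which also fell in both. Because r was taken over PBS and LPS libraries together, these shared falls follow largely from how the genes were chosen. The nearest genes to Itga4 were Jak2, Tom1l1 and Mllt10 (0.972 each, Spearman rho 0.78, 0.89 and 0.91), none called in either LPS contrast. Cd44 was nearest to Poc1b (0.940), Ogfod3 (0.922) and Uri1 (0.913), and Itgb1 to Dpp8 (0.949), Stk24 (0.938) and Cstf2 (0.937). Itga6 was nearest to Abhd17b (0.923), Tgm1 (0.904) and Pigk (0.903), and Cxcr4 to Znrf1 (0.908), Pisd-ps2 (0.899) and Ntng2 (0.894). Vcam1 was nearest to Siah1a (0.890), Slc25a53 (0.878) and Tmem268 (0.876).

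Some stem cell markers fell after LPS, as Alcam did. Of 9 markers, 6 fell in naive and 4 in experienced mice and 0 rose, while 3 and 5 were not called. The median log2 changes were -1.17 and -0.52. Their summed level was 340 to 434 TPM in naive PBS, 104 to 202 in naive LPS, 301 to 414 in experienced PBS and 137 to 233 TPM in experienced LPS libraries. Hlf fell from 353 ± 98.9 to 66.9 ± 23.6 CPM in naive mice and Procr from 22.2 ± 5.15 to 5.06 ± 0.972 CPM, while Slamf1 (log2 change 0.20) and Tek (-0.29) were not called. Ctnnal1 had 3.93 to 5.70 TPM in naive PBS and 3.67 to 6.85 TPM in naive LPS libraries. In experienced mice it had 1.72 to 5.38 TPM after PBS and 5.19 to 6.54 TPM after LPS. The part of cell composition in the fall of Alcam was not tested.

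Markers of committed cells also shifted after LPS. Of 9 tested mast cell and basophil markers 9 rose in naive and 6 in experienced mice, and of 9 erythroid markers 6 rose in naive and 0 in experienced mice. The summed erythroid level was 23.7 to 150 TPM in naive PBS and 402 to 1193 TPM in naive LPS libraries. It spread from 67.1 to 1555 TPM in experienced PBS and from 236 to 1127 TPM in experienced LPS libraries. In the interaction 0 of the 9 erythroid markers were called (edgeR). Of 11 lymphoid-primed and B cell markers 7 fell in naive and 4 in experienced mice. Of 5 neutrophil markers 1 fell in each, and of 5 T and NK cell markers 2 fell in each. Their part in the members' values was not tested.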

How the data were processed

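RNA was measured in sorted HSPCs, with 16 tables of genes, 1 per biological replicate. Each biological replicate has 2 technical replicates in the labels, and no source used here says how these were combined. Reads were processed with Trim Galore 0.6.7, STAR 2.7.10a and RSEM 1.3.1 on GRCm38, per the submitters' processing notes. The library kit that the labels name is one for droplets, whereas each table holds bulk values, and this was not resolved. Annotation release and strand rule are not stated in the sources used here. As deposited, the tables hold RSEM expected counts, which need not be whole, TPM and an abundance-weighted transcript length, per the file headers. RSEM divides reads shared between transcripts by its estimates, so isoform lengths are estimates too.

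Gene coordinates (GRCm38) were read from GENCODE and promoters from RefSeq (GRCm38.p6). Expected counts were rounded. Genes passing edgeR's filter by group (15186, holding 99.928% of counts) were scaled with TMM factors (trimmed mean of M values) and fitted with 1 mean per group by quasi-likelihood (edgeR 4.0.16, R 4.3.3). P-values were adjusted over all genes tested and called under 0.05. The fit was also run on simulated counts, with the same spread for all genes and changes only in more abundant ones. That run does not bear on rare genes such as Vcam1 or on the unequal spread of Itga4. CPM are TMM-scaled. Intervals are 95%. Alternatives used DESeq2 1.42.0, limma 3.58.1 on log2(TPM + 1), upper-quartile factors, no filter, the 2 groups of a contrast alone, a replicate block, and libraries left out.

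All 8 members were named. The listed gene Cd99 had no row. From each related list up to 4 genes called for LPS in naive mice and up to 2 in each other contrast were named by lowest p, and per member the 3 genes with the highest r among genes averaging 3 or more in log2 CPM. Gene names in marker lists and experienced or naive values set beside a named gene were added after values were seen. Members, lists and alternatives were chosen with earlier results of these data known.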

Additional observations from a re-analysis of the deposited data

Results flagged for a closer look

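Values of the 8 genes in 64 sets of 4 libraries were screened for a library far from the other 3, by the gap to its nearest neighbour over the range (Dixon's rule), and 9 were found. Chance gives about 1 in 20 for independent sets with normally distributed values. These sets share libraries and some of the genes varied jointly, so that rate cannot be applied to them. In experienced LPS library 4 there were 5 of these: Itga4 at 1216 CPM (nearest 399), Itgb1 at 254 CPM (nearest 197), Vcam1 at 3.02 CPM (nearest 0.610), and weighted transcript lengths of 8696 bases for Itga4 (nearest 7341) and 2662 bases for Cd44 (nearest 3534). The same library had 7.30% mitochondrial counts. The other 4 were Cxcr4 at 178 CPM in experienced PBS library 1 (nearest 139), Cd44 at 312 CPM in naive PBS library 4 (nearest 258), Vcam1 at 3.36 CPM in naive PBS library 3 (nearest 4.42) and the Vcam1 length of 2840.5 bases in naive LPS library 4 (nearest 3469).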

How the results depend on the processing

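With 4 libraries a group, only sizeable differences can pass: the median SE of a log2 change was 0.25, and Vcam1 rested on as few as 3 expected counts. Of the values recomputed with other settings 275 kept their direction and side of the threshold, 15 now passed, 1 no longer passed and 20 reversed, and none of the reversed values had been called. The cause of these shifts was not tested.

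Members called after LPS in naive mice numbered 4 instead of 2 with DESeq2, with the 2 groups alone, without both high-mitochondrial libraries and without the 4 least typical libraries, a set chosen after seeing the data. Of all genes, these settings called 27.2%, 24.3%, 31% and 34.3%, instead of 21.7%. In experienced mice members called numbered 1 with limma and 4 without the least typical libraries (7.45% and 31.6% of all genes, instead of 12.8%). In that last setting 54 instead of 24 related genes were called in experienced mice and 3 instead of 0 between experienced and naive mice after LPS. Ordered by CPM in place of TPM, naive PBS cells had Itga4 at rank 1 (from 6), Cd44 at 2 (from 3), Itgb1 at 3 (from 4), Selplg at 4 (from 1) and Cxcr4 at 6 (from 2). Limma on TPM moved the median of all genes by -0.12 in both LPS contrasts.

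Reversed log2 values after LPS in experienced mice were -0.038 (limma) and -0.15 (without both high-mitochondrial libraries) for Itga4, and for Itgb1 0.013 (DESeq2), 0.022 (no filter), 0.0098 (the 2 groups alone) and 0.15 (without the least typical libraries). At rest, experienced minus naive, limma gave 0.044 for Cxcr4 and 0.031 for Alcam. Leaving out the least typical libraries gave 0.072 for Cxcr4, -0.083 for Itgb1, -0.050 for Cd44 and 0.070 for Alcam, and leaving out both high-mitochondrial libraries gave -0.0086 for Cd44. After LPS they were 0.018 for Itgb1 (least typical) and -0.054 for Cd44 (high-mitochondrial). Response differences reversed to -0.040 for Cxcr4, 0.10 for Itgb1, 0.15 for Cd44 and -0.39 for Vcam1 (least typical), and to -0.61 for Vcam1 (high-mitochondrial).

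Leaving out 1 library at a time, 2 to 4 members were called in naive and 2 to 3 in experienced mice. Over all genes, 2089 to 4398 were called in naive and 1065 to 3157 in experienced mice in these fits. Alcam (-2.67 to -2.46, and -2.51 to -2.15), naive Selplg and experienced Itga6 were called in 16 of 16 fits. Ranges that crossed 0 after LPS were -0.18 to 0.095 for naive Cd44, and in experienced mice -0.33 to 0.46 for Itga4, -0.10 to 0.11 for Itgb1 and -0.19 to 0.040 for Cd44. At rest they were -0.13 to 0.037 for Cxcr4 and -0.018 to 0.18 for Cd44. Between experienced and naive mice after LPS they were -0.016 to 0.15 for Cxcr4, -0.72 to 0.059 for Itga4, -0.21 to 0.14 for Itgb1, -0.073 to 0.22 for Cd44, -0.066 to 0.13 for Selplg, -1.16 to 0.71 for Vcam1 and -0.10 to 0.25 for Alcam. For response differences they were -0.17 to 0.11 for Cd44 and -0.81 to 1.07 for Vcam1.

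Whether replicate numbers pair the libraries could not be settled. A correlation of deviations over 0.1 was found in 4 of 24 same-numbered and 18 of 72 different-numbered pairs. Of 16 libraries, 4 correlated best with one of their own number. The highest pair, experienced PBS 4 and experienced LPS 4 (0.321), shares a number. With 4 libraries a group, such correlations cannot show whether a number stands for a shared batch. With the replicate block 3 members were called in naive and 3 in experienced mice (2920 and 1592 of all genes), and Vcam1 stood at -2.31 and -1.88 (adjusted p = 0.0103 and 0.0389, edgeR). Vcam1 could not be tested after LPS between experienced and naive mice with the 2 groups alone, because it did not pass the filter there.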
